A study of Mus musculus with 16 samples.

Results

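The genes described here are 39 genes of the pancreatic acinar cell, listed by name: 25 digestive enzymes or enzyme precursors, 4 acinar transcription factors and 10 further proteins of the secretory granule, the endoplasmic reticulum and the cell surface. Of the 39, 38 (24 of the enzymes) were measured in both tables of the series, which list 17361 and 17318 genes, and Ctrc was not analysed here. The series measured bulk RNA of isolated mouse islets in 16 libraries, 4 in each of 4 groups, as FPKM (fragments scaled to transcript length and to the mapped fragments of the library). One table holds mice on normal chow: B7-H4 fl/fl mice (Flox), in which exon 2 of Vtcn1 is flanked by loxP sites on a C57BL/6J background, and B7-H4 fl/fl mice that also carry Rip-Cre (cKO), a recombinase driven by the rat insulin promoter and therefore active in β cells. Flox mice carry no Cre, so Cre itself and the deletion cannot be told apart. B7-H4, the product of Vtcn1, is an immune checkpoint protein, and the study compared islets without and with an excess of it. The other table holds mice on a high-fat diet (HFD) from the age of 6 weeks, which after 8 weeks of the diet received an adeno-associated virus, AAV2/8, infused through the pancreatic duct: a control virus (H-ins2-C) or a virus with B7-H4 under an Ins2 promoter (H-ins2-O), with islets taken 5 weeks later. The host genotype is given as Flox in the methods and as wild type in the design text, and the age of the chow-fed mice was not given in the sources used here. In every group the islets were freed with collagenase P and picked by hand, so any exocrine tissue that stayed attached is part of the sample. Libraries are named below by group and replicate number, and where nothing states that each came from a separate mouse, p-values measure only the spread between these libraries.

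Acinar cells make up most of the exocrine pancreas. They store enzyme precursors in zymogen granules and release them into the duct when cholecystokinin binds its receptor, and trypsinogens, once activated in the gut, activate the other precursors. Transcription of these genes depends on a trimeric complex of Ptf1a, a basic helix-loop-helix partner and Rbpjl, with Nr5a2 as a nuclear receptor that acts with it and Bhlha15 (Mist1) as the factor that shapes the secretory machinery. Islet endocrine cells are not known to make the enzymes, so in islet preparations these transcripts are commonly read as a measure of acinar tissue. In bulk samples, fewer acinar cells and less acinar RNA per cell cannot be told apart.

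Relative depth, recovered from the steps between low FPKM values, each step being 1 read, ranged from 0.942 to 1.07 in the chow table and from 0.840 to 1.08 in the HFD table, and no pair of libraries held identical values. Nr5a2 stood at 162 to 670 whole steps in the chow libraries and 53 to 476 in the HFD libraries, and Ptf1a at 110 to 545 and 30 to 573. Cela3a and Prss1 rested on fewer reads, Cela3a at 54 to 569 steps on chow and 11 to 244 on HFD, and Prss1 at 11 to 550 and 0 to 156, listed at 0 in H-ins2-C 4. Vtcn1 itself was near the floor in Flox (0.0199, 0.0603, 0.0188 and 0.216 FPKM) and in cKO (0.0207, 0.125, 0.0202 and 0.0642 FPKM), and gene FPKM also counts exons outside the floxed one, so the deletion could not be checked on it. It was 0.0636, 0.371, 0.349 and 0.284 FPKM in H-ins2-C and 40.0, 128, 74.1 and 60.5 FPKM in H-ins2-O.

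Promoters are shown first because the factors and the enzymes are linked through them. RefSeq promoter windows of mm10 (GRCm38.p6) were found for 31 of the 39 members, in 33 windows, and the 250 bases before each start site were searched on both strands for an E-box (CANNTG), a TC-box (TTTCCCA, the site bound by the Rbpjl arm of the complex) and the Nr5a2 motif CAAGGTCA. An E-box stood in 26 of the 33 windows, where 66.2% of all 32851 promoters hold one, a TC-box in 6 (6.82% of all) and the Nr5a2 motif in 2 (1.33% of all). An E-box and a TC-box at most 30 bases apart were found in 5 windows, those of Ctrb1, Cela2a, Cel, Cpa1 and Cela3a, against 1.61% of all promoters. The search set no rule on the order, strand or exact spacing of the 2 boxes, so these pairs need not have the arrangement that the complex binds. A match is a description of letters and not a bound site. The 5 stretches are printed 5′ to 3′ along the gene, with E-boxes and TC-boxes (TTTCCCA or its reverse complement TGGGAAA) and, in Cel, the reverse complement of the Nr5a2 motif in capitals. They lie at chr8:111691165-111691235 (Ctrb1, minus strand), chr4:141826060-141826130 (Cela2a, minus strand), chr2:28563418-28563503 (Cel, minus strand), chr6:30639143-30639213 (Cpa1, plus strand) and chr4:137409996-137410041 (Cela3a, minus strand).
Ctrb1: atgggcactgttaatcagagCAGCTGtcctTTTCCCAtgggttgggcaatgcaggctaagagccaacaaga
Cela2a: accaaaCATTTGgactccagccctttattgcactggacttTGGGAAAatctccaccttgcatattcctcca
Cel: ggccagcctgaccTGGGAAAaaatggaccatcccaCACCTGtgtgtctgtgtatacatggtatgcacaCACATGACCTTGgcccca
Cpa1: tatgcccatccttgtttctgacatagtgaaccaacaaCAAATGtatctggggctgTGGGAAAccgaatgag
Cela3a: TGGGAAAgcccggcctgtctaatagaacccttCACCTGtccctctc
In Ctrb1 the E-box has the letters CAGCTG and stands just before the TC-box on the same strand. In the other 4 the TC-box is read on the opposite strand, before the E-box in Cel and Cela3a and after it in Cela2a and Cpa1. In Cel the Nr5a2 motif overlaps a second E-box nearer the start site. All 5 genes are enzymes, and their levels spanned the list, from Cela3a at 6.45 FPKM to Ctrb1 at 34431 FPKM (means over 16 libraries).

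The 38 acinar genes held between 2.28% and 78.6% of all FPKM in these islet libraries. In Flox 1 to 4 the share was 29.0, 37.2, 11.3 and 7.83%, and in cKO 1 to 4 it was 38.02, 48.3, 45.1 and 47.5%. All cKO libraries therefore lay above all Flox libraries, although Flox 2 and cKO 1 differed by less than 1 percentage point. The means were 21.3 ± 14.1% and 44.7 ± 4.67% (SD, n = 4). In H-ins2-C 1 to 4 it was 5.77, 60.1, 78.6 and 2.28%, and in H-ins2-O 1 to 4 15.1, 12.52, 13.5 and 11.6%. The H-ins2-O libraries were alike and all lay inside the gap between the 2 low and the 2 high H-ins2-C libraries. The sum of 8 β cell genes (Ins1, Ins2, Iapp, Mafa, Slc2a2, Ucn3, Nkx6-1 and Pdx1) was 381906, 155891, 37704 and 272504 FPKM in H-ins2-C 1 to 4, lowest in the library with the largest acinar share. H-ins2-C 4 also stood apart in the summed δ cell genes Sst and Hhex, at 14869 FPKM against 266 to 7743 FPKM in the other HFD libraries, in the α cell genes (Gcg, Ttr and Irx2), at 94411 against 947 to 32365 FPKM, in the endothelial genes (Pecam1, Cdh5, Kdr and Plvap), at 524 against 48.6 to 318 FPKM, and in the macrophage genes Adgre1, Cd68, Csf1r and Lyz2, at 143 against 19.2 to 45.5 FPKM. The part of these cells in the acinar values was not tested.

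**Figure D1:**
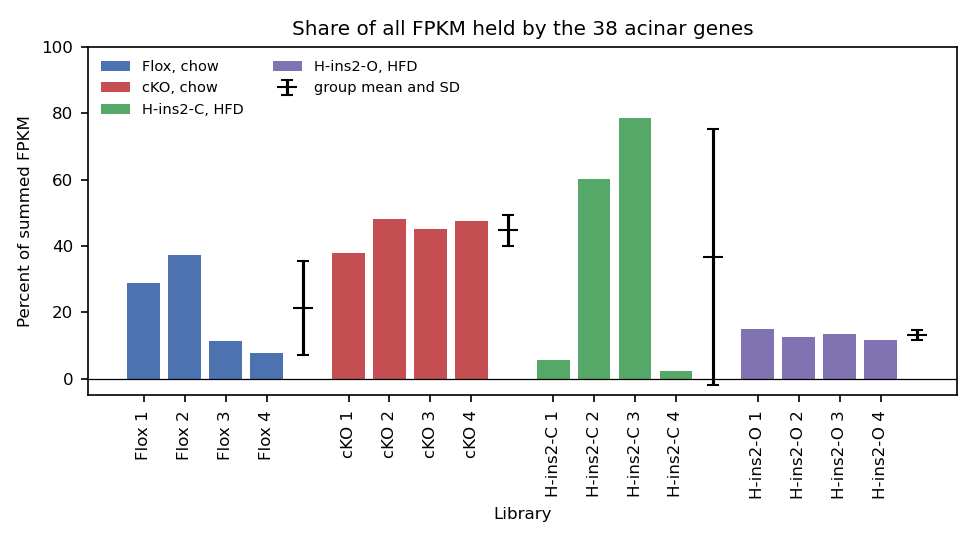
Percent of the summed FPKM of each library held by the 38 acinar genes (y axis) in the 16 libraries (x axis, named by group and replicate), with the mean and SD of each group of 4 beside its bars. The 4 H-ins2-C libraries run from 2.28% to 78.6%, while the 4 H-ins2-O libraries sit between 11.6% and 15.1%.

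Did acinar transcripts differ between islets with and without Rip-Cre on chow? All 38 members had a higher mean log2 level in cKO than in Flox, with a median log2 fold change of 1.40 against -0.34 over all 11804 genes tested, of which 13.1% were higher and 86.9% lower, but Amy1 alone passed the test (adjusted p under 0.05 and a fold change over 1 on the log2 scale, limma on log2(FPKM + 0.5) with Benjamini-Hochberg adjustment). Over all genes 0.339% passed in this direction and 0.974% in the other. At an unadjusted p under 0.05, 23 of 38 members were higher in cKO and none lower (3.12% of all genes higher, 38.3% lower). In 9 members, Try5, Try10, Cela2a, Cela3b, Cpa1, Amy2b, Amy1, Zg16 and Cuzd1, every cKO library exceeded every Flox library (1.32% of all genes), and in none did the reverse hold (15.4% of all genes). Flox 2 weighed most on the count. Without it 35 of 38 members passed, all higher, beside 145 of all 11821 genes higher and 362 lower. With the 3 libraries per group that the published heatmaps name, which leave out Flox 2 and cKO 1, 36 passed. In that fit 153 of all 11794 genes were called higher and 546 lower. Without Flox 1 the count of members was 3 (Amy1, Cckar and Ptf1a), beside 158 of 11800 genes higher and 333 lower. Without cKO 1 it was 2 (Amy1 and Nr5a2), beside 47 of 11795 genes higher and 180 lower. Amy1 itself no longer passed without Flox 3, Flox 4, cKO 2, cKO 3 or cKO 4. With libraries rescaled by median-of-ratios factors the median of all genes moved to -0.00086 and that of the members to 1.78, none of the 38 passed, and the split of all genes called went from 40 higher and 115 lower to 26 higher and 10 lower (with libraries scaled to the genes that are not members, 39 and 5).

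Amy1 encodes the salivary-type amylase, which splits starch and is transcribed at a low level in pancreas. It was 23.9, 29.3, 15.5 and 10.3 FPKM in Flox 1 to 4 and 29.7, 39.2, 37.96 and 45.7 FPKM in cKO 1 to 4, a log2 fold change of 1.02 (SE 0.28, adjusted p = 0.0391). The groups did not overlap, but the highest Flox and the lowest cKO library nearly met. Its log2 fold change was the smallest of the 24 enzymes and its SE the smallest too. Amy2a5 is a pancreatic-type amylase, and its relative Amy2b is an unprocessed pseudogene in the annotation used here (GENCODE M21), although it is counted among the 24 enzymes. Amy2b and Amy2a5 were 60.4 to 229 FPKM and 42.8 to 213 FPKM in Flox and 236 to 351 FPKM and 141 to 340.0 FPKM in cKO. Rnase1, the pancreatic ribonuclease and the most abundant gene of this class, was 4888, 7503, 1861 and 1276 FPKM in Flox and 7117, 9727, 7982 and 9872 FPKM in cKO, a log2 fold change of 1.49 (SE 0.59, adjusted p = 0.113).

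Among the proteases, Prss2, the main anionic trypsinogen, was 16183, 23335, 6553 and 4387 FPKM in Flox and 23138, 30112, 25895 and 29626 FPKM in cKO. Flox 2 lay just above cKO 1, while Flox 3 and Flox 4 were the lowest of the 8, and the log2 fold change was 1.41 (SE 0.56, adjusted p = 0.112). Ctrb1, chymotrypsinogen B, was 29158, 43145, 12440.0 and 8225 FPKM in Flox and 42137, 55210.1, 54641 and 52040.2 FPKM in cKO, 1.42 (SE 0.55, adjusted p = 0.106). Cela2a, a pancreatic elastase, was 31411, 41906, 11636 and 8372 FPKM in Flox and 42059, 55574, 50469.7 and 51915 FPKM in cKO, 1.39 (SE 0.55, adjusted p = 0.113). Cela2a did not overlap between the groups and Ctrb1 did, again at Flox 2. Cpa1, carboxypeptidase A1, which trims the ends of peptides, was 10029.9, 12878, 4224 and 2996 FPKM in Flox and 14336, 17118, 15458 and 15895 FPKM in cKO, 1.30 (SE 0.49, adjusted p = 0.103). The fold changes of the 6 trypsinogens ran from 1.16 (Try4) to 2.07 (Prss3), and those of the 4 elastases from 1.39 (Cela2a) to 1.87 (Cela3a), all on the log2 scale and none past the test.

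Pnlip, pancreatic lipase, was 14884, 21699, 5001 and 3601 FPKM in Flox and 21343, 27314, 24712 and 28453 FPKM in cKO, a log2 fold change of 1.53 (SE 0.61, adjusted p = 0.114). The other fat-digesting members, the bile salt-dependent lipase Cel, the lipase-related Pnliprp1 and Pnliprp2, the cofactor colipase (Clps) and the phospholipase Pla2g1b, had log2 fold changes between 1.32 and 1.53, Pnlip being the highest. Zg16, a lectin-like protein of the granule, was 4312, 6770.4, 1890.0 and 1367 FPKM in Flox and 7241, 9467, 7982 and 8288 FPKM in cKO, 1.48 (SE 0.53, adjusted p = 0.0917), without overlap. Spink1, the trypsin inhibitor packed with the precursors, was 644, 997, 233 and 144 FPKM in Flox and 888, 1140.0, 998 and 1192 FPKM in cKO, 1.45 (SE 0.64, adjusted p = 0.135). It followed the enzymes library by library, with Flox 2 above cKO 1. Tmed6, a cargo receptor of the early secretory pathway, was 89.7, 149, 43.2 and 33.3 FPKM in Flox and 133, 174, 161 and 176 FPKM in cKO, 1.26 (SE 0.49, adjusted p = 0.106). The cholecystokinin receptor Cckar had a log2 fold change of 1.10 (SE 0.36, adjusted p = 0.0677).

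**Figure D2:**
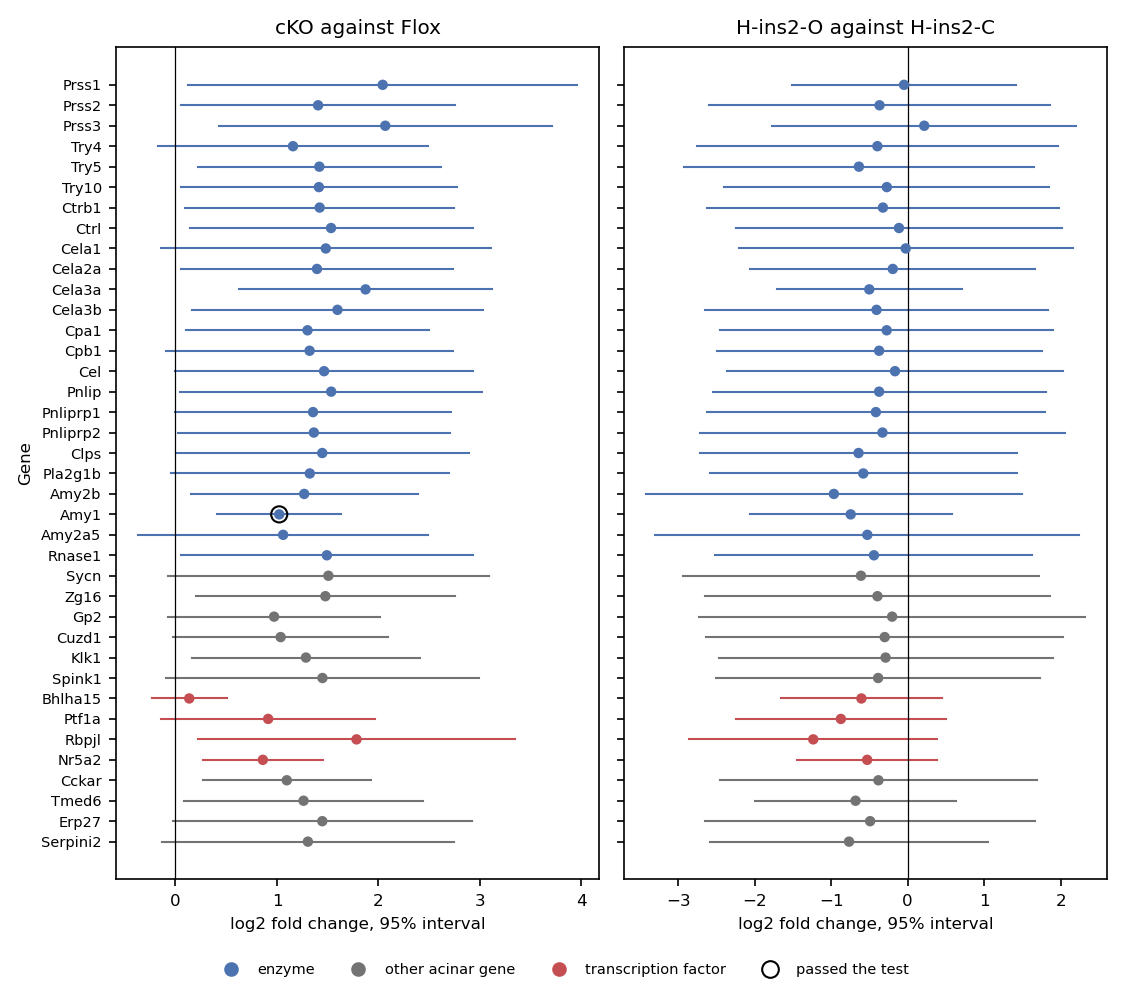
Log2 fold change of each of the 38 acinar genes (y axis) with its 95% interval (x axis) for cKO against Flox and H-ins2-O against H-ins2-C, 4 libraries per group, coloured by kind of gene, with a ring around the gene that passed the test. Every point lies above 0 in the first comparison, Bhlha15 lowest at 0.14, while in the second every interval spans 0.

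The 4 transcription factors had log2 fold changes of 0.14 to 1.78, against 1.02 to 2.07 for the 24 enzymes, and none of the 4 passed the test. Bhlha15 was 51.9, 40.4, 32.0 and 30.2 FPKM in Flox and 39.0, 40.1, 46.9 and 40.4 FPKM in cKO, a log2 fold change of 0.14 (SE 0.18, adjusted p = 0.542). Flox 1 was the highest of the 8 libraries, and the whole range was 1.72-fold, against a median of 7.18-fold for the enzymes. Ptf1a was 11.3, 5.48, 2.93 and 2.29 FPKM in Flox and 11.9, 6.65, 9.38 and 9.15 FPKM in cKO, 0.91 (SE 0.45, adjusted p = 0.158), with Flox 1 close to the highest library, cKO 1. Nr5a2 was 2.14, 3.30, 1.33 and 1.001 FPKM in Flox and 2.24, 4.35, 4.001 and 4.52 FPKM in cKO, 0.86 (SE 0.28, adjusted p = 0.0510), just above the threshold of 0.05. Rbpjl, which occurs almost solely in acinar cells, was 20.4, 46.0, 8.67 and 5.73 FPKM in Flox and 58.3, 63.6, 46.8 and 43.3 FPKM in cKO, 1.78 (SE 0.64, adjusted p = 0.0937). Rbpjl had the widest range of the 4, 11.1-fold, against the enzyme median of 7.18-fold, and its lowest and highest libraries were Flox 4 and cKO 2.

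Each factor was then set against the enzymes of its own library, as log2(FPKM + 0.5) minus the mean over the 24 enzymes. Relative to the enzymes Bhlha15 was -5.01, -5.89, -4.47 and -3.95 in Flox and -5.88, -6.40, -6.05 and -6.25 in cKO. Flox 2 lay within the cKO range, and the difference of -1.31 gave an exact two-sided permutation p of 0.0571 (n = 4 and 4, where 0.0286 is the smallest possible). The differences of Ptf1a, Nr5a2 and Rbpjl were -0.54, -0.59 and 0.34, with exact permutation p of 0.257, 0.0857 and 0.2 (8 such tests over both comparisons, unadjusted). The limma fit of relative values called none of the 38 members higher or lower, and the adjusted p of Bhlha15 was 0.0859. In that fit 81.7% of all genes were called lower and 0.0678% higher, and it gave members an SE of 0.56 to 0.77, with the spread shared over all genes. That background turned on single libraries: the 9644 genes called lower became 2 without Flox 3, 9 without Flox 4 and 2, 3 and 4 without cKO 2, 3 and 4, and 6 with the replicate number as a block. Try4, a trypsinogen, was the one member whose relative levels did not overlap, at 2.38 to 2.54 in Flox and 2.09 to 2.32 in cKO (20.9% of all genes lower without overlap, 0.0169% higher). Without Flox 2 the limma fit called Bhlha15 lower, with a relative log2 fold change of -1.67. That fit also called 11481 of all 11821 genes lower and 6 higher, with a median of -2.29. Bhlha15 thus lay above the median gene, and the call is no result particular to it.

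Enzymes and factors were also set side by side between the libraries with the least and the most acinar RNA of each table. From Flox 4 to cKO 2 the 24 enzymes differed by a median of 6.73-fold, and Bhlha15, Ptf1a, Nr5a2 and Rbpjl differed 1.33-, 2.91-, 4.34- and 11.1-fold. From H-ins2-C 4 to H-ins2-C 3, 23 enzymes differed by a median of 42.7-fold, leaving out Prss1, which was listed at 0, and the same factors 4.997-, 17.9-, 6.57- and 19.4-fold. Bhlha15 had the smallest fold of all members in both pairs, while Rbpjl exceeded the enzyme median in the chow pair and stayed below it in the HFD pair. In H-ins2-C 4, where acinar genes held 2.28% of FPKM, Bhlha15 was still 13.1 FPKM, or 13.2 per 1000 FPKM of Pnlip, against 1.52 in H-ins2-C 3. Transcription from cells other than acinar cells was not tested. Across the 8 libraries the SD of the relative log2 level had a median of 0.155 over the 24 enzymes on chow and 0.163 on HFD, lowest for Ctrb1 (0.0530) and Rnase1 (0.0818) and highest for Prss1 (0.726 and 0.816), and for the factors it was 0.364 to 0.899 and 0.592 to 1.005, Rbpjl lowest and Bhlha15 highest. The spreads of enzymes and factors thus overlapped, although every factor lay above the enzyme median on both diets.

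**Figure D3:**
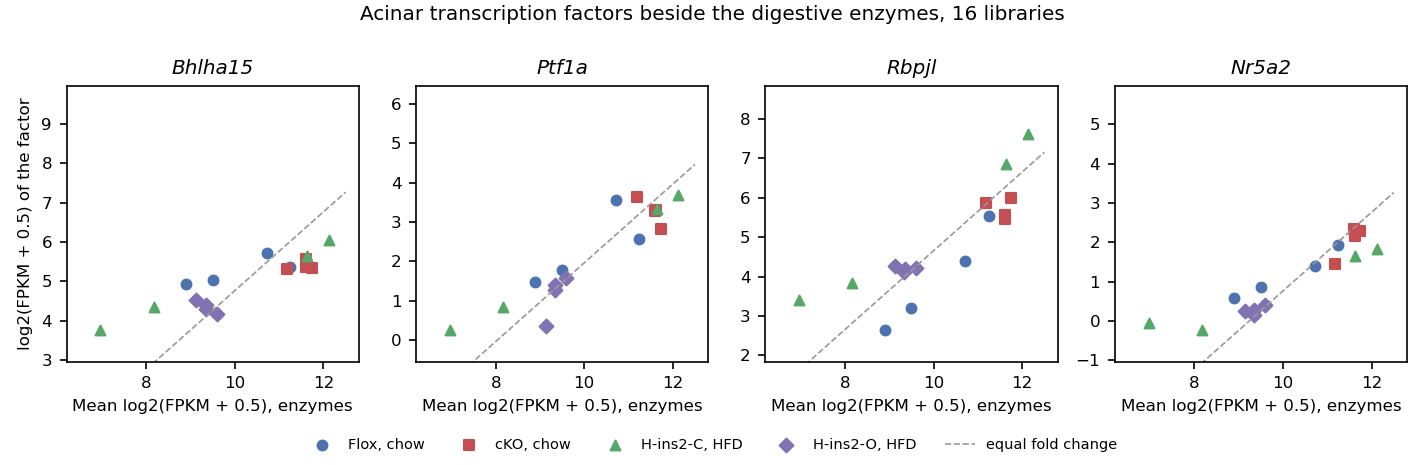
Log2(FPKM + 0.5) of each factor (y axes) against the mean log2(FPKM + 0.5) of the 24 enzymes (x axes) in the 16 libraries, marked by group, with a dashed line along which factor and enzymes would change by the same fold, drawn through the median offset. Bhlha15, Ptf1a and Nr5a2 span less on the y axis than the line, and the HFD libraries of Rbpjl lie above most chow libraries with the same enzyme level. The added 0.5 FPKM narrows the span of low genes such as Nr5a2.

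Did acinar transcripts differ between HFD islets with and without the B7-H4 virus? None of the 38 members passed the test in either direction, nor did any reach an unadjusted p under 0.05, where 0.033% of the 12132 genes passed higher and none lower (5.58% of genes reached an unadjusted p under 0.05 in the higher and 0.833% in the lower direction). The median log2 fold change of the members was -0.40 and that of all genes 0.44, and 37 of 38 members were below 0, as were 15.8% of all genes (84.2% were above). In no member did the groups fail to overlap, against 5.61% of all genes higher and 0.964% lower without overlap. For most enzymes this direction turned when either of the 2 control libraries with the most acinar RNA was left out. For the factors it did not. Without H-ins2-C 2 the median of the members was 0.27, with 20 of 24 enzymes above 0, and without H-ins2-C 3 it was 0.43, with 21 of 24 enzymes above 0. The 4 factors, Amy1, Amy2b, Cela3a, Serpini2 and Tmed6 stayed below 0 in both, and the 4 factors stayed below 0 whichever library was left out, at most -0.24 for Bhlha15, -0.32 for Ptf1a, -0.18 for Nr5a2 and -0.51 for Rbpjl. No fit left out H-ins2-C 2 and H-ins2-C 3 together, so whether the factors rested on that pair was not tested. Rbpjl and Nr5a2 were higher in every H-ins2-O library than in H-ins2-C 1 and H-ins2-C 4, and Bhlha15 and Ptf1a overlapped those 2. With median-of-ratios scaling, which moved the median of all genes to -0.0064, the median of the members was -0.96, and again no member passed. The intervals were wide, with SEs of 0.44 to 1.25 on the log2 scale, and the 95% interval of Prss2 ran from -2.59 to 1.86.

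Prss2 was 3145, 39551, 54368 and 1128 FPKM in H-ins2-C and 8193, 7135, 7225 and 6522 FPKM in H-ins2-O, a log2 fold change of -0.37 (SE 1.03, adjusted p = 0.840). Ctrb1 was 5669, 75709, 113731 and 1993 FPKM in H-ins2-C and 16333, 14159.9, 14322 and 11984 FPKM in H-ins2-O, -0.32 (SE 1.07, adjusted p = 0.864). In both, H-ins2-C 3 was the highest and H-ins2-C 4 the lowest of the 8 libraries, and all H-ins2-O libraries lay between H-ins2-C 1 and H-ins2-C 2. Cela2a was 6273, 68888, 82752 and 2759 FPKM in H-ins2-C and 18298, 13893, 15585 and 14538 FPKM in H-ins2-O, -0.19 (SE 0.88, adjusted p = 0.902). Cpa1 was 2404, 29477, 38331 and 897 FPKM in H-ins2-C and 6877, 5472, 5839 and 5190.2 FPKM in H-ins2-O, -0.27 (SE 1.004, adjusted p = 0.878). The same order of control libraries held for both. Pnlip was 2821, 33208, 42955 and 988 FPKM in H-ins2-C and 7365, 5448, 6282 and 5608 FPKM in H-ins2-O, -0.37 (SE 1.01, adjusted p = 0.835). Rnase1 was 1296, 15819, 21013 and 615 FPKM in H-ins2-C and 3242, 2922, 3027 and 2725 FPKM in H-ins2-O, -0.44 (SE 0.96, adjusted p = 0.800). Lipase and ribonuclease had the same order of libraries at both ends.

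Zg16 was 967, 13236, 18448 and 407 FPKM in H-ins2-C and 2756, 2191, 2411 and 2211 FPKM in H-ins2-O, -0.39 (SE 1.04, adjusted p = 0.832). Spink1 was 42.2, 519, 736 and 20.2 FPKM in H-ins2-C and 131, 102, 93.2 and 90.8 FPKM in H-ins2-O, -0.39 (SE 0.97, adjusted p = 0.826). Granule protein and inhibitor again had all 4 H-ins2-O libraries inside the control range. Tmed6 was 30.1, 174, 271 and 23.9 FPKM in H-ins2-C and 49.6, 43.0, 49.3 and 48.8 FPKM in H-ins2-O, -0.68 (SE 0.63, adjusted p = 0.616). Amy1 was 4.85, 32.4, 44.4 and 3.73 FPKM in H-ins2-C and 8.18, 7.92, 7.01 and 7.23 FPKM in H-ins2-O, -0.74 (SE 0.63, adjusted p = 0.606). From lowest to highest library, Tmed6 and Amy1 spanned 11.3-fold and 11.9-fold, less than the median of 42.7-fold over the enzymes.

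Bhlha15 was 19.96, 49.3, 65.3 and 13.1 FPKM in H-ins2-C and 17.5, 19.1, 20.5 and 22.5 FPKM in H-ins2-O, and Ptf1a was 1.28, 9.61, 12.48 and 0.696 FPKM in H-ins2-C and 2.49, 1.93, 2.16 and 0.783 FPKM in H-ins2-O. Nr5a2 was 0.354, 2.67, 3.08 and 0.469 FPKM in H-ins2-C and 0.831, 0.718, 0.615 and 0.699 FPKM in H-ins2-O, and Rbpjl was 13.8, 116, 195 and 10.1 FPKM in H-ins2-C and 18.0, 16.7, 17.8 and 18.7 FPKM in H-ins2-O. The log2 fold changes were -0.60 for Bhlha15, -0.87 for Ptf1a, -0.53 for Nr5a2 and -1.23 for Rbpjl, with adjusted p between 0.591 and 0.604. Relative to the enzymes of the same library, Rbpjl was -4.32, -4.77, -4.52 and -3.56 in H-ins2-C and -5.38, -5.23, -5.15 and -4.87 in H-ins2-O. The groups did not overlap, the difference was -0.86, and the exact two-sided permutation p was 0.0286, the smallest this design allows, in 1 of the 8 tests and unadjusted. The limma fit of relative values did not call it (adjusted p = 0.969, SE 1.87). That fit shares the spread over all genes and gave the members SEs of 1.44 to 1.87. The SD of relative Rbpjl was only 0.52 in H-ins2-C and 0.22 in H-ins2-O. The fit could therefore hardly call any member, and no conclusion is drawn from its lack of calls. Bhlha15, Ptf1a and Nr5a2 gave differences of -0.23, -0.50 and -0.16, with exact permutation p of 0.743, 0.343 and 0.943. Among the enzymes, Ctrl and Cela1 were higher relative to the others in every H-ins2-O library than in any H-ins2-C library and Clps lower, 0.0412% of all genes being so in each direction. That share is low by construction, because genes that do not follow the enzymes take on the spread of the subtracted mean (6.96 to 12.1 in H-ins2-C). No member was called by limma in this fit, which called 0 of 12132 genes higher or lower (at an unadjusted p under 0.05, 2 genes or 0.0165% were higher).

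The shares of the larger enzyme classes in the acinar signal varied less than its amount, and their ranges overlapped between the tables. Trypsinogens held 13.3 to 16.5% of the members' FPKM in the 16 libraries, chymotrypsinogens 17.05 to 20.7%, elastases 23.1 to 29.1%, carboxypeptidases 9.20 to 10.5% and lipases with their cofactors 17.1 to 21.1%, although their share of all FPKM ran from 2.28% to 78.6%. Ctrb1 and Cela2a shared the top place, each leading in 8 of 16 libraries. The inhibitors Spink1 and Serpini2 held 0.348 to 0.429% in the chow libraries and 0.134 to 0.188% in the HFD libraries. The 4 factors held 0.0269 to 0.0730% on chow and 0.0344 to 0.154% on HFD, and Tmed6, Erp27 and Cckar 0.0708 to 0.191% over all 16, both highest in H-ins2-C 4. The tables came from different mice and may have been normalised separately, and diet, virus, infusion, age and table cannot be told apart, so what follows is a description with no test, and it uses levels within a library.

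Relative to the enzymes of the same library, 9 of 38 members were higher in every HFD library than in any chow library, namely Ctrl, Cela3b, Cpa1, Cel, Clps, Pla2g1b, Rnase1, Sycn and Zg16 (0.0913% of the 12048 genes at a mean of 0.5 FPKM or more). Another 3, Prss3, Amy2a5 and Spink1, were lower in every HFD library (0.0332% of all genes), and the other 26 overlapped. On this scale the levels of nearly all genes outside the acinar cell overlapped between the tables. The enzyme mean that was subtracted ran from 6.96 to 12.1 (log2) in the HFD libraries, and genes that do not follow the enzymes take on that spread. Such genes could hardly separate, so the shares of all genes are low by construction and no measure for the members. Spink1 per 1000 FPKM of the 6 trypsinogens was 20.9, 22.5, 18.2 and 16.7 in Flox, 20.5, 20.8, 20.1 and 22.5 in cKO, 7.82, 7.28, 6.90 and 9.63 in H-ins2-C and 8.80, 8.09, 7.29 and 8.00 in H-ins2-O. Every HFD library lay below every chow library, among them H-ins2-C 4, with 2.28% acinar FPKM, and H-ins2-C 3, with 78.6%. Spink1 blocks trypsin that becomes active too early inside the pancreas. Amy2a5 per 1000 FPKM of Pnlip was 11.7, 9.80, 30.4 and 11.9 in Flox, 6.61, 10.4, 13.7 and 11.9 in cKO, 1.89, 3.46, 3.95 and 1.53 in H-ins2-C and 2.94, 2.02, 2.17 and 2.54 in H-ins2-O. Flox 3 stood above the others, and all 8 HFD libraries were below all 8 chow libraries. Amy2a5 shares much of its sequence with Amy2a2, and how reads were split between them is not known. Clps, which anchors lipase to fat droplets, was 673, 691, 684 and 742 per 1000 FPKM of Pnlip in Flox, 667, 667, 633 and 656 in cKO, 1031, 1014, 1223 and 1376 in H-ins2-C and 904, 1077, 953 and 899.8 in H-ins2-O. Here the HFD libraries were above the chow libraries. Sycn, a protein of the inner face of the granule membrane, was 248 to 285 per 1000 FPKM of Pnlip on chow and 362 to 580.4 on HFD. Rbpjl was 1.37 to 2.73 per 1000 FPKM of Pnlip on chow and 2.44 to 10.2 on HFD, an overlap of the 2 ranges at their edge. These pairs were chosen after their values were seen.

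**Figure D4:**
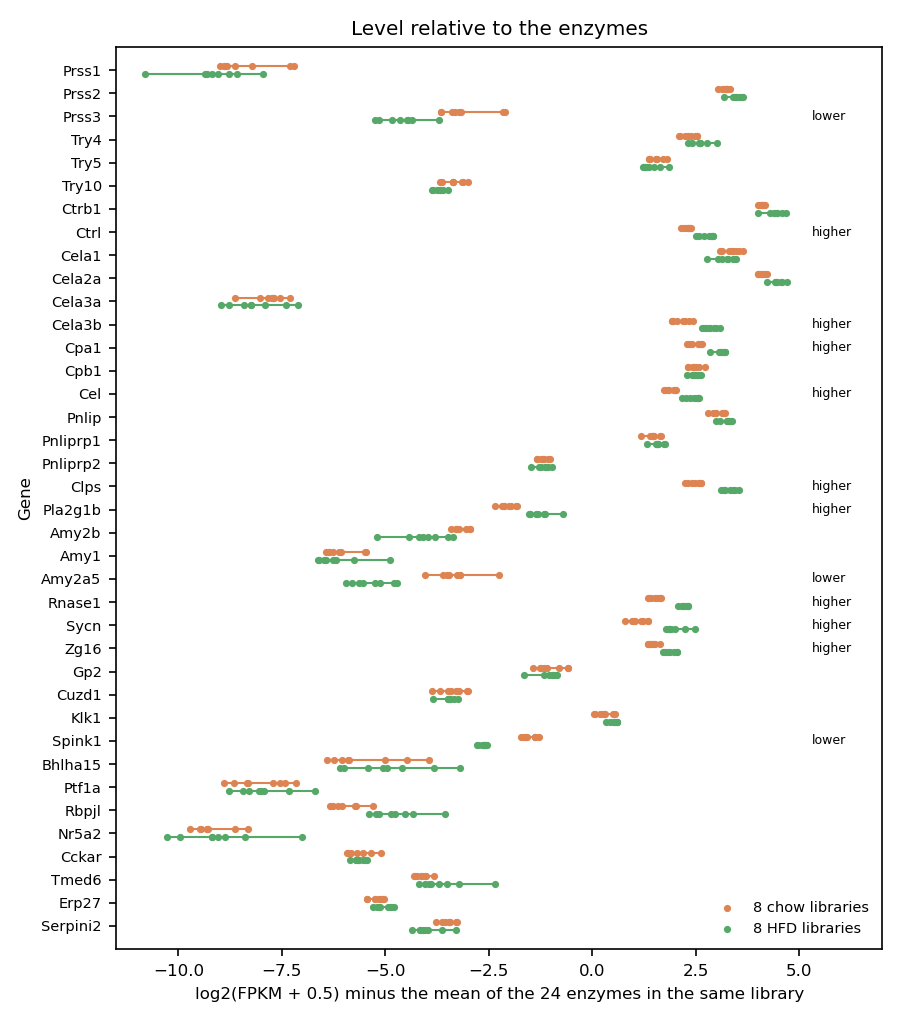
Level of each of the 38 acinar genes (y axis) as log2(FPKM + 0.5) minus the mean of the 24 enzymes in the same library (x axis), 1 point per library, for the 8 chow and the 8 HFD libraries, with a line from the lowest to the highest. The words higher and lower mark the 9 and 3 genes whose HFD libraries do not overlap the chow libraries, Spink1 among them at -2.80 to -2.55 against -1.72 to -1.28.

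**Figure D5:**
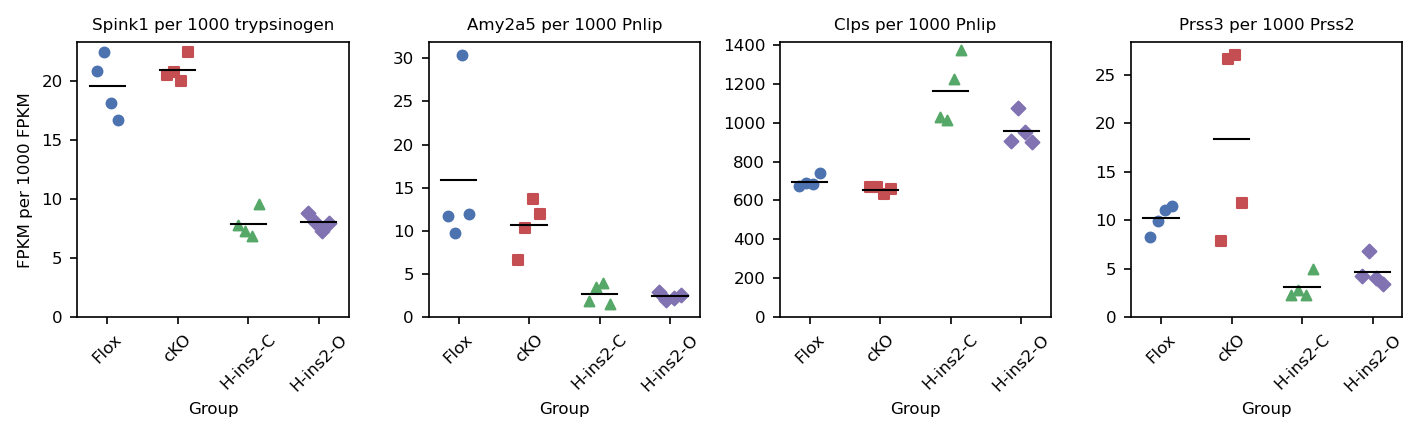
FPKM of Spink1 per 1000 FPKM of the 6 trypsinogens, of Amy2a5 and Clps per 1000 FPKM of Pnlip and of Prss3 per 1000 FPKM of Prss2 (y axes) in the 4 groups (x axes), 1 point per library and a line at the mean. Spink1 lies at 16.7 to 22.5 in the chow groups and 6.90 to 9.63 in the HFD groups, and Prss3 has 2 cKO libraries at 26.6 and 27.1.

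Several members share sequence, and their reads could have been split in more than one way by the authors' counting. Of the 50-base windows of the longest annotated transcript (GENCODE M21, mm10), 66.1% of those of Prss3, 65.6% of Try4, 54.9% of Prss1, 53.9% of Try5 and 40.8% of Try10 also occur in another gene, against 7.83% of Prss2. The 6 trypsinogen genes stand in one cluster on mouse chromosome 6, from position 41302269 (Try4) to 41525079 (Prss2) of mm10, beside the T cell receptor β genes. For Amy2a5 and Amy2b the shares were 57.2% and 40.2%, both mostly with Amy2a2, and for Amy1, the member that passed the test, 2.69%. The Amy2a5 transcript used has 3715 bases and 2097 shared windows, while that of Amy2b has 1577 bases. A shorter transcript of Amy2a5 could thus be shared in larger part than 57.2%. Cela3a and Cela3b share 34.2% and 33.2% with each other, and 25.6% of Cela2a also occurs in a transcript of Ctrc that runs across it on chromosome 4. Ctrb1, Ctrl, Cela1, Cel, Pnlip, Pnliprp1 and Pnliprp2 share none. The values of Try4, Try5, Try10, Prss1, Prss3, Amy2a5, Amy2b, Cela2a, Cela3a and Cela3b are uncertain for this reason.

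Acinar genes outside the list were taken from a list of 13 (Pdia2, Aqp12, Aqp8, Fgf21, Gnmt, Gatm, Cldn10, Rab3d, Vamp8, Reg1, Tff2, Slc38a5 and Dnase1), of which 12 were tested. On chow, 2 of 12 were higher in cKO at an adjusted p under 0.05 and none lower, against 1.02% and 12.8% of all genes, with a median log2 fold change of 0.82. These were Gatm, the first enzyme of creatine synthesis, at 67.2, 75.6, 49.5 and 34.5 FPKM in Flox and 87.5, 116, 112 and 115 FPKM in cKO, 0.97 (SE 0.21, adjusted p = 0.0182), and the glutamine transporter Slc38a5, at 11.8, 18.2, 7.07 and 5.27 FPKM and 29.7, 41.6, 34.8 and 34.1 FPKM, 1.82 (SE 0.32, adjusted p = 0.0180). Both had no overlap between the groups. With median-of-ratios scaling or scaling to the genes that are not members neither passed and Rab3d alone did, 12 of 12 being above 0. Slc38a5 did not follow the enzymes on HFD, where it was 46.4 FPKM in H-ins2-C 4, the library with the least acinar RNA, and 32.1 FPKM in H-ins2-C 3. Neither did Rab3d and Vamp8, at 33.1 and 94.4 FPKM in H-ins2-C 4 and 23.5 and 51.5 FPKM in H-ins2-C 3. On HFD 0 of 12 passed, with a median of -0.49. Of 5 other acinar regulators (Xbp1, Gata4, Onecut1, Mecom and Foxa2), 4 were tested on chow and 3 on HFD and none passed, with medians of 0.27 and 0.04.

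Markers of other cells moved with the same split of the chow libraries. Of 8 β cell genes, 4 (Ins2, Iapp, Slc2a2 and Ucn3) were lower in cKO at an adjusted p under 0.05 and none higher, against 12.8% of all genes lower and 1.02% higher, and the sum of the 8 was 256676 to 373917 FPKM in Flox and 195491 to 240311 FPKM in cKO. Of 3 α cell genes 2 (Gcg and Ttr) were lower, with sums of 8501 to 16726 and 5963 to 8828 FPKM, and of 4 endothelial genes 3 (Pecam1, Cdh5 and Kdr), with sums of 68.8 to 125.4 and 55.4 to 73.2 FPKM. Of 5 stellate and fibroblast genes tested 2 (Dcn and Lum) were lower, as were 1 of 1 lymphocyte genes tested (Cd79a) and 1 of 3 intestinal genes tested (Lgals4), and of 6 duct genes tested 1 (Muc1) was higher. With median-of-ratios scaling Pecam1 alone of these passed, and with scaling to the genes that are not members none did, the median log2 fold change of the β cell genes going from -0.43 to -0.05 and -0.01. The lymphocyte genes Cd3e, Cd3d, Cd79b and Ms4a1 were at 0 to 0.268 FPKM on chow and were not tested. Of the intestinal genes, Fabp2 was at 0 to 0.0342 FPKM on chow, and Clca1 at 0 outside Flox 2 (8.09 FPKM). Cd79a and Lgals4 are therefore no measure of lymphocytes or intestine here. None of the δ cell, macrophage and adipocyte genes tested passed, and the 4 adipocyte genes Adipoq, Plin1, Cfd and Lep were listed at 0 in all cKO libraries and in Flox 2, with sums of 0.979, 11.7 and 0.365 FPKM in Flox 1, 3 and 4. On HFD no gene of these lists passed, and the β cell sum was 37704 to 381906 FPKM in H-ins2-C and 334833 to 374716 FPKM in H-ins2-O. FPKM values share 1 total, so a larger acinar share lowers the values of other genes, and the part of this in the lower markers was not tested.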

How the data were processed

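RNA of isolated mouse islets was sequenced on a NovaSeq by the authors, who deposited 2 tables of FPKM per gene and library, 1 for the chow groups and 1 for the HFD groups. The genome build is mm10 in the submitters' processing notes, and the aligner, counter and annotation were not given in the sources used here. Groups were taken from the sample labels, the columns named control and overexpressed being read as H-ins2-C and H-ins2-O, and the tables were tested separately.

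The tests took genes that averaged 0.5 FPKM or more in a table of 8 libraries, with limma 3.58.1 in R 4.3.3 (empirical Bayes with trend and robust) on log2(FPKM + 0.5), so fold changes of low genes are understated. A gene was called at a Benjamini-Hochberg adjusted p under 0.05 over all genes tested, provided its log2 fold change exceeded 1 in size. The same fit was repeated on values relative to the mean log2 level of the enzymes of the same library, and for the 4 factors exact permutation tests were added after seeing the data. All 38 members passed the filter on low values in both tables. On simulated data with the spread of the chow and HFD tables, 195 and 79 of 200 genes given a log2 fold change of 2 were called, with 7 and 5 false calls over 11804 and 12132 genes. The changed genes were picked at random and the noise was drawn for each gene separately, whereas the members moved together by library. These counts therefore do not say how often a member would be called. On chow Prss3 and Prss1 had log2 fold changes of 2.07 and 2.04 and were not called (limma adjusted p = 0.0781 and 0.108). Read depth is not stated in the tables, and steps were called whole within 0.02 of a step. Python 3.11.15, NumPy 2.4.6, pandas 2.3.3, SciPy 1.17.1 and matplotlib 3.10.9 were used.

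The members and lists (other acinar genes and regulators, and β, α, δ, duct, stellate and fibroblast, endothelial, macrophage, lymphocyte, adipocyte and intestinal markers) were chosen with earlier results of these data known. From these lists 3 genes are not reported here, and the counts leave them out. Values in every library are given for the most abundant member of each class, the 4 factors and any member called in a fit. Alternatives covered the pseudocount, the filter, scaling, moderation, a replicate block, the fold minimum, the enzyme reference, 3 libraries per group and each library left out.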

Additional observations from a re-analysis of the deposited data

Results flagged for a closer look

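Over 76 groups of 4 libraries (the FPKM of 14 members, the 4 factors relative to the enzymes and the share of FPKM held by the members), 3 held a library whose gap to the nearest other, divided by the range of the group, exceeded Dixon's 95% critical value, and chance alone flags about 1 in 20 groups. Relative to the enzymes, Rbpjl in Flox 2 was -5.71, with the other Flox libraries at -6.34 to -6.26. Ptf1a in H-ins2-O 4 was -8.77 relative to the enzymes, with the other H-ins2-O libraries at -8.06 to -7.94. Tmed6 was 43.0 FPKM in H-ins2-O 2, with the other H-ins2-O libraries at 48.8 to 49.6 FPKM.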

How the results depend on the processing

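In cKO against Flox, 40 genes were called higher, 115 lower and 1 member higher. With 3 libraries per group the counts were 153, 546 and 36, without trend and robust moderation 121 genes and 23 members were called higher, and with the replicate number as a block 102 genes and 12 members were called higher and 166 genes lower. A pseudocount of 1 gave 23 higher and 61 lower, a pseudocount of 0.1 gave 70 and 237, and no fold minimum gave 120 and 1511. Testing every gene with a mean above 0 gave 0 higher and 0 lower, with 0 members. Median-of-ratios scaling gave 26 and 10, and scaling to the genes that are not members called 5 lower, each with 0 members. Leaving out each library in turn gave 2 to 158 genes higher, 16 to 362 lower and 0 to 35 members higher. Relative to the enzymes, 0 members were called lower, and 1, Bhlha15, with 3 libraries per group and without Flox 2 (0 to 1 over libraries left out). Those fits called 11424 of 11794 and 11481 of 11821 genes lower.

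In H-ins2-O against H-ins2-C, 4 genes were called higher and 0 lower, 10 higher when every gene with a mean above 0 was tested and 3 lower when scaled to the genes that are not members. Without H-ins2-C 2 and without H-ins2-C 3 the log2 fold changes of 8 of the 14 members given in full turned positive (not those of Amy1, Tmed6 and the 4 factors), Prss2 0.33 and 0.48, Ctrb1 0.38 and 0.57, Cela2a 0.46 and 0.55, Cpa1 0.42 and 0.54, Pnlip 0.31 and 0.44, Rnase1 0.22 and 0.35, Zg16 0.30 and 0.46, Spink1 0.26 and 0.43. Over all libraries left out they ran from -1.38 to 0.48 (Prss2), -1.37 to 0.57 (Ctrb1), -1.09 to 0.55 (Cela2a), -1.26 to 0.54 (Cpa1), -1.38 to 0.44 (Pnlip), -1.34 to 0.35 (Rnase1), -1.38 to 0.46 (Zg16), -1.29 to 0.43 (Spink1). Relative to the enzymes, without H-ins2-C 1 and without H-ins2-C 4 Bhlha15 was 0.09 and 0.29 (range -0.67 to 0.29) and Nr5a2 0.01 and 0.48 (range -0.61 to 0.48). The cause of these changes was not tested.

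Same-numbered libraries did not deviate together (correlations of -0.21 to 0.12 on chow and -0.13 to 0.10 on HFD), so the numbers were not taken as pairs, and the replicate block called 4 genes and 0 members on HFD. The share of FPKM held by the members differed by 18.9 to 28.7 percentage points on chow and by -35.0 to -9.54 on HFD over libraries left out. The depth of the tables leaves Prss1 and Cela3a the least precise members.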

Other observations

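In cKO 2 and cKO 3 several of the least abundant serine proteases stood higher against their abundant relatives than in the other libraries. Prss3 per 1000 FPKM of Prss2 was 7.89, 26.6, 27.1 and 11.7 in cKO 1 to 4 and 8.29, 9.91, 11.0 and 11.5 in Flox 1 to 4. Prss1 per 1000 FPKM of Prss2 was 0.188, 0.751, 0.745 and 0.209 in cKO and 0.200, 0.241, 0.295 and 0.0974 in Flox. Cela3a per 1000 FPKM of Cela3b was 0.860, 1.35, 1.33 and 0.884 in cKO and 0.588, 0.881, 0.838 and 0.905 in Flox. The genes in each ratio share sequence with relatives, these ratios were chosen after their values were seen, and what sets these libraries apart was not tested.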
